A study of Mus musculus with 9 samples.

Results

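The 9 genes that encode the prostanoid receptors of the mouse (*Ptger1*, *Ptger2*, *Ptger3*, *Ptger4*, *Ptgfr*, *Ptgir*, *Ptgdr*, *Ptgdr2* and *Tbxa2r*) were examined for PBRM1 and BRG1 in primary oviductal smooth muscle cells. They were chosen by name from 21924 protein-coding genes, and every peak with its summit in the gene body or within 20 kb on either side was collected. The windows held 33 peak regions of the 83005 found in the series, where a region is a set of overlapping peaks from the 6 replicate lists. The cells came from wild-type mice aged 8 to 12 weeks on day 2 of pregnancy after mating, and all samples shared this genotype and stage. They were plated and washed before fixation, and 50000 cells entered each library. There were 3 replicate libraries for PBRM1 (BAF180 in the labels), a bromodomain protein particular to PBAF among the SWI/SNF chromatin remodelers, and 3 for BRG1, a catalytic ATPase that PBAF shares with other SWI/SNF complexes. The 3 IgG control samples were not analysed here, and neither a mutant nor another stage is among the 9 samples of the series. The labels do not say whether replicates came from separate animals, so spread between replicates may be technical.

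The prostanoids are short-lived lipids made from arachidonic acid, and each acts on G protein-coupled receptors at the surface of nearby cells. In smooth muscle the receptors fall into contractile and relaxant types. The thromboxane receptor (*Tbxa2r*), the prostaglandin F receptor (*Ptgfr*) and the EP1 receptor (*Ptger1*) raise calcium and favor contraction, whereas the EP2 (*Ptger2*), EP4 (*Ptger4*), prostacyclin (*Ptgir*) and DP1 (*Ptgdr*) receptors raise cyclic AMP and favor relaxation. The EP3 receptor (*Ptger3*) and the DP2 receptor (*Ptgdr2*) lower cyclic AMP. The balance of these signals in the oviduct wall is known to bear on the passage of embryos. The comparisons below address where PBRM1 and BRG1 were found at the receptor genes and whether the antibodies differed there.

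In ChIC-seq, micrococcal nuclease is tethered through protein A to an antibody bound in fixed cells, and the fragments it cuts out are sequenced. The deposited height of a peak is its pileup, the number of fragments covering the summit, given here in FPM, fragments per 1000000 fragments of the library. The PBRM1 libraries held 18126049 to 23992352 fragments and 31970 to 38147 peaks, and the BRG1 libraries held 14284532 to 15897724 fragments and 35220 to 39467 peaks. The lowest pileup called in a library corresponded to 0.333 to 0.386 FPM for PBRM1 and to 0.377 to 0.420 for BRG1. A gene without a peak was therefore below what the caller could separate from local background, which is not a measured level of 0. Of 8 smooth muscle marker genes, 4 had a peak within 2 kb of their own start in all 6 lists (*Smtn*, *Acta2*, *Mylk* and *Tagln*), near the 41.5% of all protein-coding genes that did, and *Cnn1* had none. Among the markers of other cell types the count in all 6 lists was 0 of 7 for oviduct epithelium, 0 of 5 for fibroblasts, 1 of 4 for endothelium (*Tek*) and 0 of 5 for leukocytes. The fibroblast gene *Dcn* had a promoter peak in 3 BRG1 lists and in no PBRM1 list. A promoter peak is not expression, and these counts are a weak check on the labelled cell type.

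The receptor promoters fell into 3 classes. An own-promoter peak is one whose summit was at most 2 kb from an annotated transcript start of the same gene. *Ptger4* and *Tbxa2r* had an own-promoter peak in all 6 lists, which is 2 of 9 receptors beside 41.5% of all protein-coding genes. *Ptger1*, *Ptger2*, *Ptger3* and *Ptgfr* had one in some lists, and *Ptgir*, *Ptgdr* and *Ptgdr2* had one in none, which is 3 of 9 beside 34.9% of all protein-coding genes. By antibody, 4 of 9 receptors had the peak in all 3 BRG1 lists (49.6% of all genes) and 3 of 9 in all 3 PBRM1 lists (43.8%). With 9 genes these shares are a description and were not tested.

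The sequences below come from receptor sites and were not all cut by the same rule. Those of *Ptger4* and *Ptger3* end at the gene start and do not hold the summit, whereas the others surround the summit. Their composition is therefore not a like-for-like comparison. The first pair lies just upstream of the starts of *Ptger4* and *Ptger3* and holds several copies of the GC box, the word GGGCGG on either strand that factors of the SP/KLF family recognize, marked in capitals. The next lies in an intron of *Tbxa2r*, where the capitals mark the single TEAD word GGAATG. The remaining 4 hold no word of the 9 motifs described below except E-boxes, which are not marked: the first coding exon of *Ptger2*, a coding exon of *Ptgdr2*, the intergenic site upstream of *Ptgfr* and the intergenic site beyond the 3′ end of *Ptgir*. All were read from GRCm38 on the strand of the gene, 5′ to 3′, and untranslated exons were left out.

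*Ptger4* upstream, chr15:5244188-5244437, minus strand: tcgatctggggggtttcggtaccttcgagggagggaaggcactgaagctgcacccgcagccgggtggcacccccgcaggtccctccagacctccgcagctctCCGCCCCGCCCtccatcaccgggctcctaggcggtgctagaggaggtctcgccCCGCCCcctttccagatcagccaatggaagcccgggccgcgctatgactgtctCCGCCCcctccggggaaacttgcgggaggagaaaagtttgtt
*Ptger3* upstream, chr3:157566726-157566891, plus strand: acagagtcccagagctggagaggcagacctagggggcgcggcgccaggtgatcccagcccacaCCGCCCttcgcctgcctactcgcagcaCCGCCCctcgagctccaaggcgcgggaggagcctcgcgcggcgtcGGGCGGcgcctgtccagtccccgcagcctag
*Tbxa2r* intron, chr10:81329775-81330014, plus strand: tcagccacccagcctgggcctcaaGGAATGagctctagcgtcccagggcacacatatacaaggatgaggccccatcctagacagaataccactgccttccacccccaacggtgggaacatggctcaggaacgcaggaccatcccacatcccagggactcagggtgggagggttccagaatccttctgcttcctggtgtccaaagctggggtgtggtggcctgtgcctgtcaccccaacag
*Ptger2* coding exon, chr14:44988965-44989260, plus strand: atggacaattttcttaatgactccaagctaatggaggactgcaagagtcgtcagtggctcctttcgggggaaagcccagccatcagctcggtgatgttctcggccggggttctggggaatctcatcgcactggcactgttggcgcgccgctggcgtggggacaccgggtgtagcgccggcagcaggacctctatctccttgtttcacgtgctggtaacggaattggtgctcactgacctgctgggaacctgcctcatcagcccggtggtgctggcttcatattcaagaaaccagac
*Ptgdr2* coding exon, chr19:10940591-10940890, plus strand: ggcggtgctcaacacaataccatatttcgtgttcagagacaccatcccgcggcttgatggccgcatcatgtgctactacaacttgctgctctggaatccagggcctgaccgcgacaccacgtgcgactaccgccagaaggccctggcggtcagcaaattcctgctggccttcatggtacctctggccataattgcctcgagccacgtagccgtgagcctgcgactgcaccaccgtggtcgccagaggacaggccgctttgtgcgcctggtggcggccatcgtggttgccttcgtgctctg
*Ptgfr* far upstream, chr3:151840896-151841195, minus strand: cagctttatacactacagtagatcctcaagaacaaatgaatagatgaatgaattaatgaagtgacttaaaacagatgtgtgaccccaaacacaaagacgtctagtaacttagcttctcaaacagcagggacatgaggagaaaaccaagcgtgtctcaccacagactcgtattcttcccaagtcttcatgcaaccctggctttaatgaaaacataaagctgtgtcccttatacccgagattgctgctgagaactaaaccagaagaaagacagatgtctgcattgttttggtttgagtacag
*Ptgir* downstream, chr7:16912547-16912846, plus strand: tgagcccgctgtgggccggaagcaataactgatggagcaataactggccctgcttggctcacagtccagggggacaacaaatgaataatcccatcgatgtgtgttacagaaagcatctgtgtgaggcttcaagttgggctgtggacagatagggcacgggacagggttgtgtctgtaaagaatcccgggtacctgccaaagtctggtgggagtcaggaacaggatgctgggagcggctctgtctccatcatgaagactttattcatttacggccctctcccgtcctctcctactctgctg

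The *Ptger4* stretch held 4 GC boxes and the *Ptger3* stretch held 3, and both were rich in G and C (66.8% and 73.5%). In *Ptger4* 2 of the 4 boxes share 1 base and print as a single run. The sequences of *Tbxa2r*, *Ptger2*, *Ptgdr2*, *Ptgfr* and *Ptgir* held no GC box, and the *Ptgfr* site was the poorest in G and C of the 7 (40.7%). The count of CpG dinucleotides was 19 in the 250 bases of *Ptger4* and 4 in the 300 bases of *Ptgfr*. The *Ptgdr2* stretch held 22 CpG in 300 bases of coding sequence.

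*Ptger4* (ENSMUSG00000039942.15, chromosome 15, 5206661 to 5244187, minus strand) had the strongest own-promoter signal of the 9 receptors. Its region was 904 bp wide, and its summit lay 64 bp inside the gene in an untranslated exon. PBRM1 pileup in FPM was 1.16, 1.43 and 1.33 in replicates 1 to 3, and BRG1 pileup in FPM was 1.95, 1.68 and 1.80. All 3 BRG1 values were above all 3 PBRM1 values. The means were 1.31 ± 0.138 for PBRM1 and 1.81 ± 0.135 for BRG1 (SD, n = 3). Both lay near the middle of promoters in general: 53.6% of the 9613 genes with a promoter peak in all 3 PBRM1 lists were lower than *Ptger4*, as were 48.6% of the 10880 genes with one in all 3 BRG1 lists.

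*Tbxa2r* (ENSMUSG00000034881.8, chromosome 10, 81328731 to 81335172, plus strand) was the other receptor with an own-promoter peak in every list. The summit lay 1193 bp past the single annotated start, in an intron, so that the start itself was not under the peak. PBRM1 pileup in FPM was 0.808, 1.10 and 0.959, and BRG1 pileup in FPM was 1.38, 1.40 and 1.06. The lowest BRG1 value fell below the highest PBRM1 value. The means of 0.957 ± 0.148 and 1.28 ± 0.189 (SD, n = 3) were low for a promoter peak, with 19.9% of genes lower for PBRM1 and 19.5% for BRG1. With a distance of 1 kb in place of 2 kb this peak would not count as a promoter peak, and *Ptger4* would be the 1 receptor left.

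*Ptger1* (ENSMUSG00000019464.6, chromosome 8, 83666678 to 83672753, plus strand) had a peak in 5 of 6 lists, with its summit 80 bp upstream of the start. PBRM1 pileup in FPM was 0.960, 1.05 and 0.709, BRG1 pileup in FPM was 1.26 and 1.05 in replicates 1 and 2, and BRG1 replicate 3 had no peak. Without BRG1 replicate 3, *Ptger1* joined *Ptger4* and *Tbxa2r*, and 3 receptors had a peak in every list left.

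*Ptger2* and *Ptger3* were found more often in BRG1 lists. At *Ptger2* (ENSMUSG00000037759.6, chromosome 14, 44988195 to 45003820, plus strand) the 1454 bp region lay over the coding exon printed above, with its summit 915 bp past the start of the gene and 444 bp from the nearest transcript start. BRG1 pileup in FPM was 0.629, 1.12 and 0.732, and the single PBRM1 peak, in replicate 2, reached 0.497. The antibodies' list counts of 3 and 1 gave p = 0.4 in a two-sided exact permutation test over the 6 libraries.

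At *Ptger3* (ENSMUSG00000040016.16, chromosome 3, 157566892 to 157645888, plus strand) BRG1 pileup in FPM was 0.944, 0.840 and 0.732 and no PBRM1 list held a peak. The summit lay 185 bp past the start in a coding exon, and the region reached into the GC-rich sequence printed above. Among the 33 regions this was the 1 that every library of one antibody held and no library of the other did. Over all protein-coding genes 0.748% had an own-promoter peak in 3 BRG1 and 0 PBRM1 lists, and 0.105% had the opposite pattern, which no receptor showed. The exact permutation test on list counts gave p = 0.1, the smallest that 3 against 3 libraries allow. The list pooled by the authors from all 3 PBRM1 replicates (61910852 fragments) held 2 peaks at the promoter, with summits 109 bp upstream and 818 bp downstream of the start and pileups of 0.339 and 0.226 FPM. These heights are at or below the 0.333 to 0.386 FPM that a single PBRM1 library needed for its lowest call. PBRM1 at *Ptger3* was therefore below detection in single libraries, not shown to be absent. The pooled BRG1 list had 1 promoter peak, at 0.641 FPM.

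**Figure D1:**
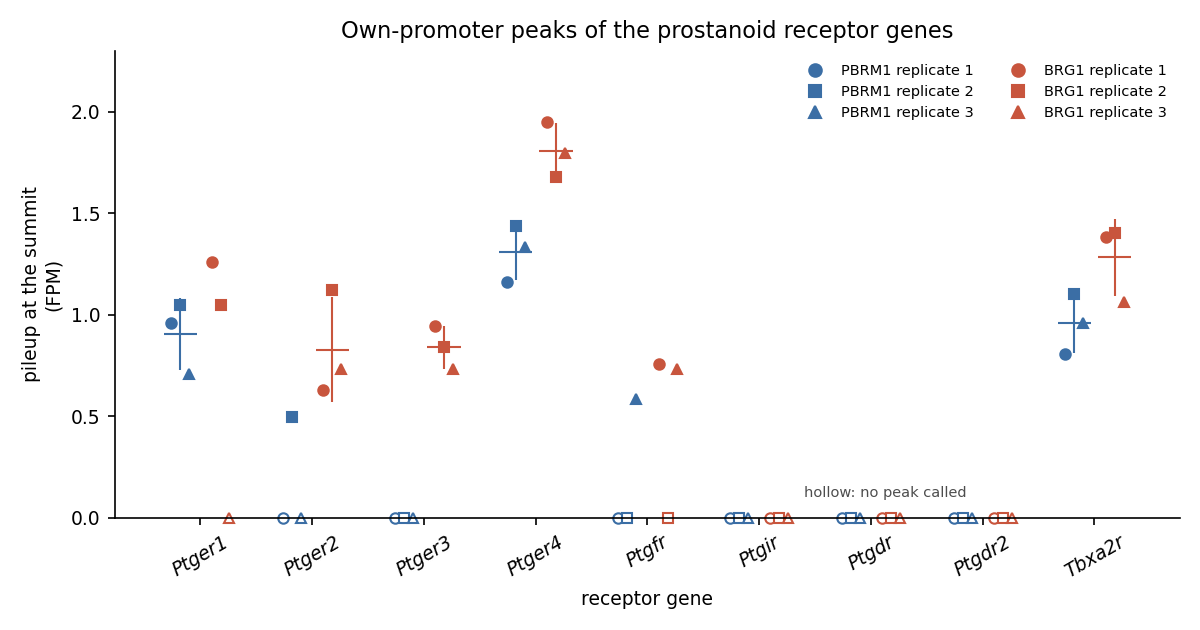
Pileup (FPM) at the strongest own-promoter peak of each receptor gene (vertical axis) in each PBRM1 (blue) and BRG1 (red) library. Filled points are called peaks and hollow points on the axis mark libraries without one. Bars give mean and SD where all 3 libraries had a peak. *Ptger4* is highest for both antibodies, *Ptger3* has BRG1 points only, and *Ptgir*, *Ptgdr* and *Ptgdr2* have none.

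*Ptgfr* (ENSMUSG00000028036.6, chromosome 3, 151796502 to 151837630, minus strand), whose receptor drives strong contraction of reproductive smooth muscle, had no promoter site shared between replicate lists. PBRM1 replicate 3 (0.584 FPM), BRG1 replicate 1 (0.755) and BRG1 replicate 3 (0.732) each placed a peak at a different position between 310 and 819 bp past the start, and the 3 peaks did not overlap. The pooled lists each held a promoter peak here. The pooled PBRM1 peak (0.468 FPM) spanned the summits of all 3 replicate peaks. The pooled BRG1 peak (0.641 FPM) had its summit 247 bp past the start. The better supported site was intergenic, 3415 bp upstream of the start. There PBRM1 pileup in FPM was 1.11 and 0.662 in replicates 1 and 2, and BRG1 pileup in FPM was 1.38 and 1.13 in replicates 1 and 3. The remaining pair of libraries, PBRM1 replicate 3 and BRG1 replicate 2, had no peak there. In the pooled lists the site had pileups of 0.678 FPM for PBRM1 and 1.13 for BRG1, with fold enrichments over local background of 3.89 and 6.39. BRG1 replicate 2, the shallowest library, had no peak in the whole *Ptgfr* window.

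*Ptgir* (ENSMUSG00000043017.9, chromosome 7, 16906490 to 16910905, plus strand), the prostacyclin receptor gene, had no own-promoter peak in any replicate list, although its window was the most densely occupied of the 9. The window held 6 regions, 4 of them in all 6 lists. One was intergenic, 6206 bp past the start and downstream of the gene, between *Ptgir* and *Calm3*. PBRM1 pileup in FPM there was 1.01, 1.21 and 0.834, and BRG1 pileup in FPM was 1.07, 1.61 and 1.26, so the groups overlapped. A second intergenic region at 7436 bp was found in 3 lists, with PBRM1 pileups of 1.06 and 0.875 FPM and a BRG1 pileup of 1.53. The other 3 regions in all 6 lists lay at starts of neighboring genes: *Calm3*, a calmodulin gene, *Gng8*, which encodes a G protein gamma subunit, and the noncoding *2700080J24Rik*. The pooled lists each held a weak peak at the *Ptgir* promoter, 999 bp upstream for PBRM1 (fold enrichment 2.28) and 894 bp upstream for BRG1 (2.59), and neither overlapped a replicate peak.

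*Ptgdr2* (ENSMUSG00000034117.3, chromosome 19, 10937160 to 10942511, plus strand) also lacked an own-promoter peak but carried a region in all 6 lists inside the gene. The summit lay in the coding exon printed above, 3580 bp past the start. PBRM1 pileup in FPM was 0.859, 0.772 and 0.50, and BRG1 pileup in FPM was 1.13, 1.05 and 1.06, with no overlap between the antibodies. Elsewhere in the window, the *Ccdc86* promoter had a peak in 2 BRG1 lists (1.38 and 1.80 FPM in replicates 1 and 3) and in no PBRM1 list (exact permutation p = 0.4).

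*Ptgdr* (ENSMUSG00000071489.1, chromosome 14, 44851235 to 44859375, minus strand) was the 1 receptor whose window held no region. The nearest region in any list was 129735 bp from its start and the nearest in all 6 lists was 332072 bp away. Both pooled lists were empty over the window too. Windows without a region made up 19.4% of all protein-coding genes.

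Of the 33 regions, 8 were at own promoters, 11 at promoters of other genes and 14 were distal. Peaks in all 6 lists were found at 10 regions, 2 at own promoters, 6 at promoters of other genes and 2 distal, the sites downstream of *Ptgir* and inside *Ptgdr2*. The neighbors with such a promoter, other than those of *Ptgir*, were *Gipc1* near *Ptger1* and *Cactin* and *Hmg20b* near *Tbxa2r*. These 10 made up 30.3% of the receptor regions, compared with 15.5% of all regions, and 14 regions (42.4%) came from a single list, compared with 47.0% of all regions. BRG1 lists alone supplied 13 regions (39.4%, compared with 30.4% of all regions) and PBRM1 lists alone 4 (12.1%, compared with 26.7%), which was not tested. The shares of all regions include regions outside gene windows. A receptor window held a median of 4 regions and a protein-coding gene window a median of 3. For regions in all 6 lists the median per window was 1 in both sets, or 1.29 for receptors and 1.01 for all protein-coding genes per 100 kb. Per 100 kb, the *Ptgir* window held 13.5 regions and the *Ptger3* window 0.840, beside a median of 4.80 over all protein-coding gene windows.

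**Figure D2:**
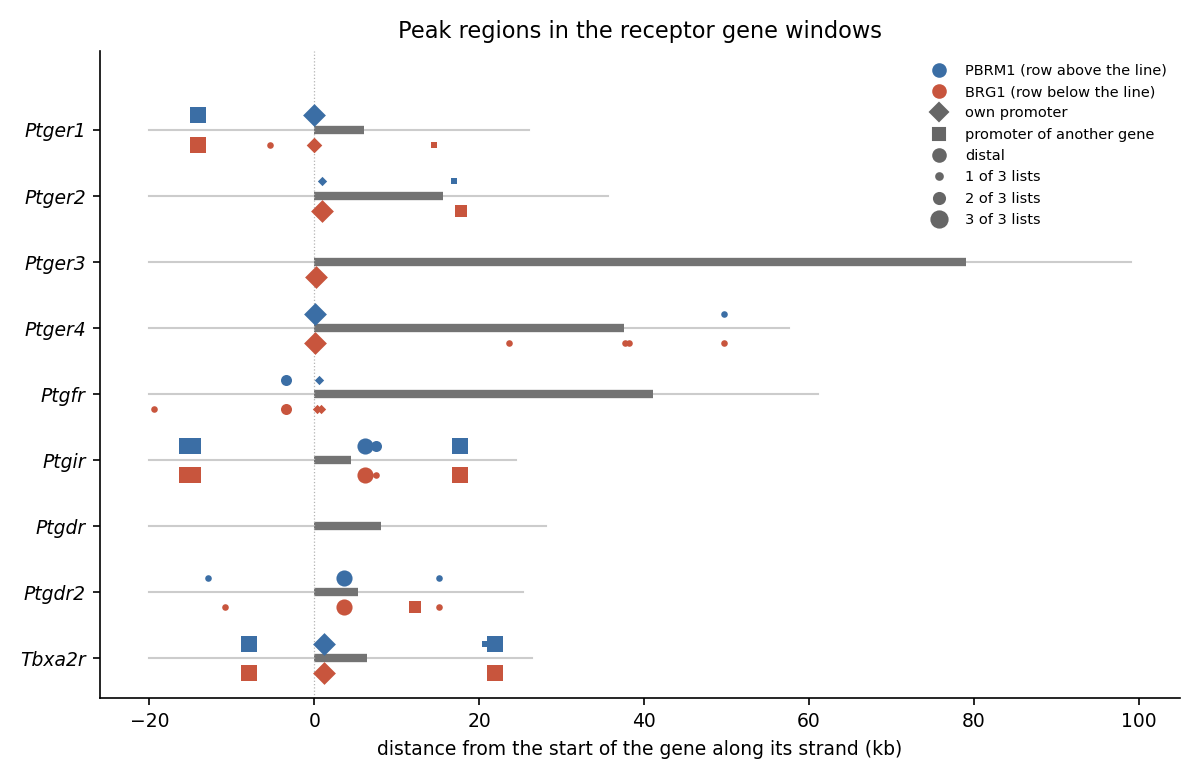
Peak regions in each receptor window by distance of the summit from the gene start in kb along the gene's strand (horizontal axis). Thick gray bars are gene bodies and thin lines the 20 kb flanks. Blue symbols above the line are PBRM1, red symbols below it BRG1, and size gives the number of lists (1 to 3). The 10 regions with a large symbol for both antibodies are found in all 6 lists, of which *Ptgir* has 4, *Tbxa2r* 3 and *Ptgdr* none.

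Whether the antibodies differed in height was tested with limma over all 12842 regions present in all 6 lists, as log2 pileup in FPM for BRG1 minus PBRM1 with Benjamini-Hochberg adjustment. BRG1 was higher at 7 of the 10 receptor window regions and PBRM1 at none. Over all such regions 52.3% were called BRG1 higher and 0.53% PBRM1 higher, so most of the receptor calls are shared with the series as a whole. The median difference was 0.48 at the 10 regions and 0.49 over all 12842. Over all regions it was 0.59 at a start and 0.27 away from starts, and most of the 10 lie at a start. The *Ptger4* promoter had a difference of 0.47 ± 0.20 (SE), a 1.38-fold ratio, with a limma adjusted p of 0.0423, and 47.9% of all regions had a smaller one. The *Ptgdr2* exon had 0.64 ± 0.21 (limma adjusted p = 0.0109), with 70.9% of all regions smaller. The *Tbxa2r* intron had 0.42 ± 0.20 (limma adjusted p = 0.0714) and the site downstream of *Ptgir* 0.36 ± 0.21 (limma adjusted p = 0.128), neither past the threshold of 0.05. Regions away from starts had quartiles of 0.082 and 0.46. The *Ptgdr2* exon lay above the upper quartile and the site downstream of *Ptgir* between them. Leaving out 1 library gave 3 to 5 calls. The *Ptger4* call held without PBRM1 replicate 2 and was lost without any of the other 5 libraries in turn (limma adjusted p = 0.0547 to 0.133), and the *Ptgdr2* call was lost without PBRM1 replicate 3 (0.106).

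The neighbors' promoters covered the same range. *Hmg20b*, which encodes a chromatin-associated HMG-box protein, had a difference of 0.79 ± 0.20 (limma adjusted p = 0.00269), and *Gng8* had 0.26 ± 0.19 (limma adjusted p = 0.247). *2700080J24Rik*, *Gipc1*, *Calm3* and *Cactin* were also called BRG1 higher, with differences of 0.71, 0.61, 0.48 and 0.48. The *Cactin* call was lost without any 1 of the 6 libraries (limma adjusted p = 0.0537 to 0.1125), the *Calm3* call without PBRM1 replicate 2 or 3 or BRG1 replicate 1 or 3 (0.0635 to 0.211), and that of *2700080J24Rik* without PBRM1 replicate 2 (0.0640). The *Hmg20b* and *Gipc1* calls held without each library in turn. All 3 BRG1 libraries exceeded all 3 PBRM1 libraries at 8 of the 10 regions, compared with 56.8% of all regions, and the exceptions were *Tbxa2r* and the site downstream of *Ptgir*.

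Because BRG1 exceeded PBRM1 by a median of 0.49 over all regions, the values were also centered on each library's median. Centering left 0 of the 10 regions called by limma, and 0 at an unadjusted p below 0.05, against 131 regions (1.02%) called BRG1 higher and 287 (2.23%) called PBRM1 higher over all. At an unadjusted p below 0.05 the uncentered limma fit held 8 of the 10 and 7701 of all 12842 regions. The centered limma fit held 2609 of the 12842 at that level. The centered differences were 0.0020 ± 0.18 at *Ptger4*, 0.18 ± 0.18 at *Ptgdr2*, -0.043 ± 0.19 at *Tbxa2r* and -0.10 ± 0.19 downstream of *Ptgir* (SE). Relative to the other regions of these libraries, no difference between the antibodies was therefore detected at a receptor site present in all 6 lists. With fold enrichment over local background as the measure, 0 of the 10 were called by limma as well, again 0 at an unadjusted p below 0.05.

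**Figure D3:**
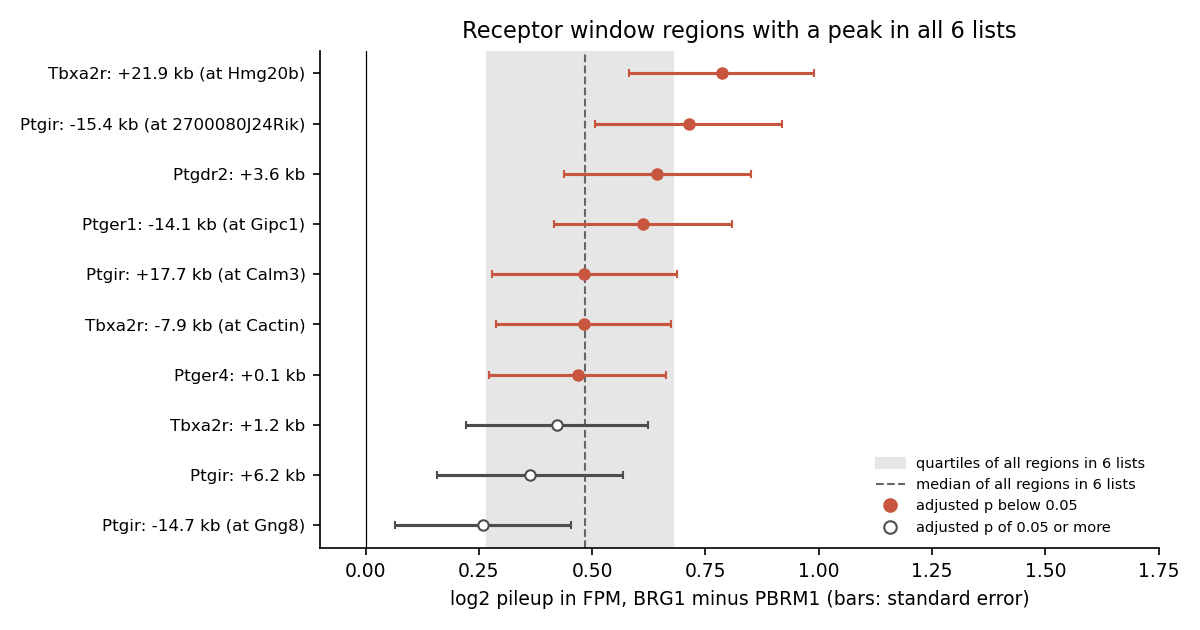
Difference in log2 pileup in FPM, BRG1 minus PBRM1 (horizontal axis), with its standard error, at the 10 receptor window regions found in all 6 lists, each named by its receptor and distance from its start. Filled red points passed a limma adjusted p of 0.05. The dashed line and gray band give the median (0.49) and quartiles (0.27 and 0.68) of all 12842 regions, which hold 7 of the 10 points.

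The sum of peak pileups in each gene window was compared in the same way, as log2(sum in FPM + 0.5), over the 16508 windows with a summit in at least 3 lists. *Ptgdr* had too few peaks to be tested. Over all windows 0.569% were called BRG1 higher and 0.182% PBRM1 higher. Of the 8 receptor windows tested, 7 held peaks of both antibodies and did not pass the threshold. The exception, *Ptger3*, entered the fit only through its 3 BRG1 lists, so its value restates the peak pattern given above and is not a separate test of it. Its summed pileup was 0.944, 1.68 and 0.732 FPM in the BRG1 libraries, covering 507 bp on average, and 0 in every PBRM1 library. The fitted difference of 1.65 ± 0.24 (SE, limma adjusted p = 0.0454) rests on a group at 0 in all 3 libraries and depends on the value added before the logarithm, and no fold change is given against a group without a peak. It passed no threshold when any 1 PBRM1 library was left out (limma adjusted p = 0.0705 to 0.107), and under centering (0.0663). Without any 1 BRG1 library the window had a summit in fewer than 3 lists and was not tested.

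For the other 7 windows the differences were 1.02 ± 0.37 for *Ptger2* (limma adjusted p = 0.0996), 0.83 ± 0.46 for *Ptgdr2* (0.210), 0.72 ± 0.26 for *Ptger4* (0.0997), 0.51 ± 0.17 for *Ptger1* (0.0919) and 0.50 ± 0.19 for *Tbxa2r* (0.107). *Ptgir* had 0.45 ± 0.20 (0.144) and *Ptgfr* 0.30 ± 0.64 (0.728). Across the 8 windows 5 had an unadjusted p below 0.05, and 6135 of all 16508 windows did. The median over the 8 receptor windows was 0.61, or 0.51 over the 7 with a PBRM1 peak, compared with 0.46 over all windows tested. Centered, the medians were 0.22 for the receptors and 0.068 for all windows. The receptor value includes *Ptger3*, whose centered difference of 1.50 rests on a group at 0. The other centered differences were 0.79 (*Ptger2*), 0.47 (*Ptgdr2*), 0.34 (*Ptger4*), 0.11 (*Ptger1*), 0.058 (*Tbxa2r*), 0.033 (*Ptgfr*) and 0.015 (*Ptgir*).

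The fitted difference was positive in all 8 receptor windows tested, compared with 88.3% of all windows tested. At *Ptger3* it rests on PBRM1 sums of 0. At *Ptger1* summed pileup in FPM was 3.08, 2.87 and 2.42 for PBRM1 and 4.28, 4.06 and 4.19 for BRG1. The covered length there was similar (1015 and 1072 bp on average). Most of that signal is the *Gipc1* promoter, with mean pileups of 1.88 FPM for PBRM1 and 2.87 for BRG1. *Ptgir* and *Tbxa2r* had the largest sums, 6.80 ± 1.14 and 6.62 ± 0.762 FPM for PBRM1 and 9.47 ± 1.24 and 9.55 ± 1.11 for BRG1 (SD, n = 3), again mostly at neighbors' promoters. In both windows the BRG1 libraries covered fewer base pairs (1840 and 2300 on average) than the PBRM1 libraries (2309 and 2781). At *Ptgfr* the groups overlapped widely, with 2.14, 0 and 2.39 FPM for BRG1 and 1.11, 0.662 and 0.584 for PBRM1.

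**Figure D4:**
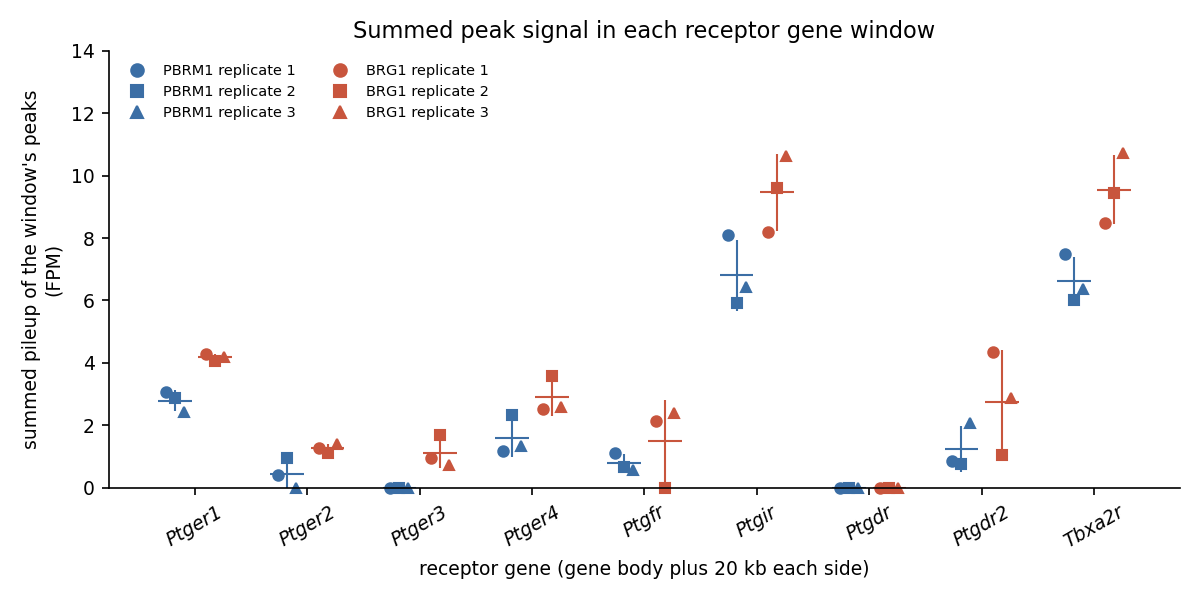
Summed pileup of all peaks in each receptor gene window in FPM (vertical axis) for each PBRM1 (blue) and BRG1 (red) library, with mean and SD (n = 3). *Ptgir* and *Tbxa2r* are highest, *Ptger3* is at 0 in the 3 PBRM1 libraries, and *Ptgdr* is at 0 in all 6 libraries.

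The base composition around the starts followed the promoter peaks for some receptors and not for others. In the 250 bp to either side of the start, *Ptger4* and *Ptger3* were the most GC rich (68.5% and 66.1%) and had the most CpG relative to base composition (observed over expected 0.718 and 0.808). The medians over genes with a promoter peak in all 6 lists were 62.1% and 0.790. *Ptgir* and *Ptgdr2*, without an own-promoter peak, had CpG ratios of 0.189 and 0.20, near the median of 0.190 over genes without a promoter peak, but their G and C contents of 57.3% and 56.7% were above the upper quartile of 53.9% of those genes. *Tbxa2r* and *Ptger1* had peaks but CpG ratios of only 0.264 and 0.283. *Ptger2* had 41.1% G and C, lower than the other 8, and a ratio of 0.236. *Ptgdr* (58.7%, ratio 0.394) and *Ptgfr* (53.5%, ratio 0.476) lay between.

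**Figure D5:**
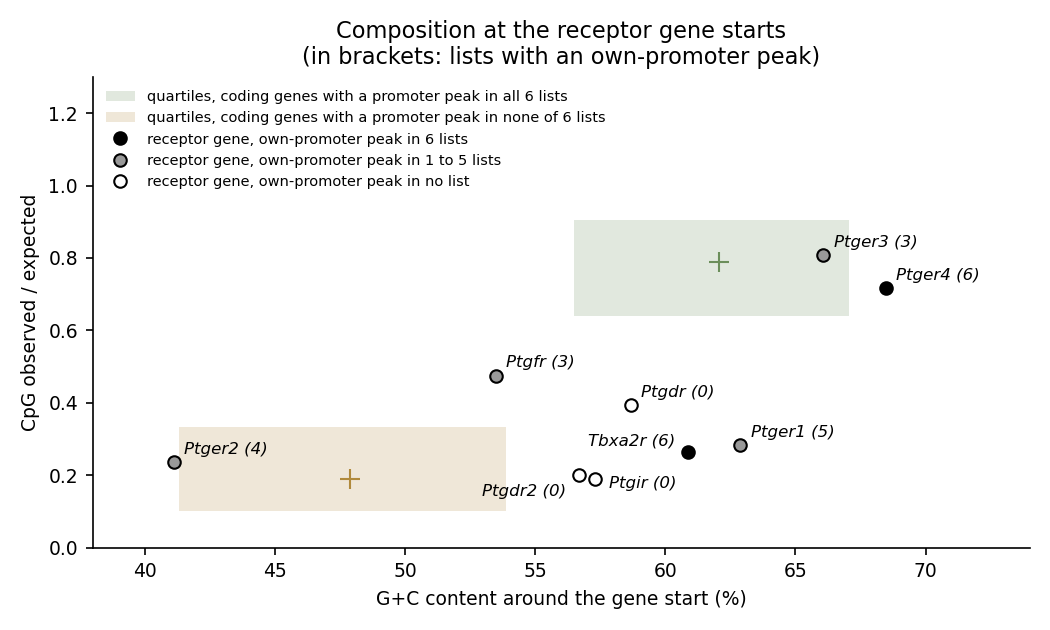
G and C content in percent (horizontal axis) against the observed over expected CpG ratio (vertical axis) in the 250 bp to either side of each receptor gene start. Numbers in brackets and shading of the points give the number of lists with an own-promoter peak, and the boxes give quartiles of protein-coding genes with such a peak in all 6 lists (green) or none (tan), with crosses at the medians. Among the receptors, *Ptger3* lies inside the green box and *Ptger4* beside it.

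A set of 9 motifs was searched on both strands within 150 bp of the summits of the 10 receptor regions found in all 6 lists, and shares of all such regions served as background. The GC box GGGCGG was found in 6 of 10 (47.2% of all, 65.5% of those at a start and 12.9% of those away from starts), among them the *Ptger4* promoter. The E-box CANNTG was found in 7 of 10 (68.4% of all) and the TEAD word GGAATG in 1 of 10, the *Tbxa2r* intron (16.1%). None of the 10 held the AP-1 word TGANTCA (15.3% of all), the cyclic AMP response word TGACGT (9.76%), the GATA word AGATAA (7.09%), the SRF CArG box (1.71%), the steroid receptor element (0.670%) or the CTCF core (0.624%). Occurrences of different motifs may overlap. A word in the sequence is a description of these windows and not a bound site.

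The promoters most like the receptors' over the 6 libraries were found by the root-mean-square difference in log2 pileup in FPM among 9089 other genes with a promoter peak in all 6 lists. For *Ptger4* these were *Ago3* (0.085), *Pdcd2* (0.088) and *Pym1* (0.088), and 414 genes were within 0.2. For *Tbxa2r* they were *Fam167a* (0.099), *Manbal* (0.10) and *Gpx7* (0.11), and 87 genes were within 0.2. The *Ptger4* pattern was thus shared with many promoters of like height.

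The other genes of the pathway were counted in the same way, without a test, beside the 41.5% of all protein-coding genes with an own-promoter peak in all 6 lists. Of 12 synthesis genes 8 had one, with the highest pileups at the prostaglandin E synthase genes *Ptges2* (mean 2.3 FPM over the 6 lists), *Ptges3* (2.28) and *Ptges* (1.76). *Ptgds*, a prostaglandin D synthase gene, had none. Of 8 transport and breakdown genes 5 had one, led by the carbonyl reductase gene *Cbr1* (2.33), the reductase gene *Ptgr2* (1.94) and *Hpgd* (1.65), the dehydrogenase that inactivates prostaglandins, and *Akr1c18* had none. Of 28 coupling genes 15 had one, led by *Grk6* (3.24), *Gna12* (2.85) and *Gna11* (2.84), and *Grk3* had none. All coupling genes but *Ptgfrn* encode G proteins, phospholipases, adenylyl cyclases, kinases or arrestins. *Plcb1*, a phospholipase C gene downstream of Gq, had a promoter peak in 3 BRG1 lists (0.910 ± 0.083 FPM, SD, n = 3) and in no PBRM1 list, as *Ptger3* did. The pileup of *Ptger4* (mean 1.56 FPM) was below those of the 9 leading genes of the 3 lists. At the promoter regions of these lists found in all 6 lists, limma called BRG1 higher at 5 of 7 synthesis, 4 of 5 transport and breakdown and 11 of 12 coupling regions, and PBRM1 higher at none, compared with 67.7% of all regions at a start and 23.5% of those away from starts called BRG1 higher.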

How the data were processed

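ChIC-seq was performed on wild-type primary oviductal smooth muscle cells with 3 libraries each for PBRM1 and BRG1. The submitters' processing notes name cutadapt, Bowtie2, MACS2 and the build GRCm38.p5, and other read filters are not given in the sources used here. Per the file headers, narrow peaks were called by the authors (MACS 2.2.7.1) on paired-end fragments. Duplicates were kept at this step, with an effective genome size of 2300000000 bp, a q cutoff of 0.05 and no control library, with local background estimated over 10000 bp. The deposited pileup is signal, the fragment coverage at the summit, and is unscaled. Fold enrichment, as deposited, is pileup over the local background that MACS estimated from that library. The deposited q-value is given as −log10 q. Pooled lists were used only to describe peaks.

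Pileup was expressed as FPM (fragments per 1000000 fragments of the library). Peaks sharing at least 1 bp were merged, and the strongest peak of a list stood for it in a region. Starts and genes were from GENCODE M21, and no peak lay past a GRCm38 chromosome end. Lists were compared with limma 3.58.1 in R 4.3.3, tested on simulated data, with Benjamini-Hochberg adjustment at 0.05, and with two-sided exact permutation. In the simulated data the region fit recovered 71% of log2 differences of 1 and 96% of those of 2. The window fit recovered 11% and 61%, so a window without a call is not shown to be equal between the antibodies. Sequence was read with pysam 0.24.0. The 9 receptors were all named, with the 3 genes of each other list highest in mean promoter pileup, genes found in 3 lists of an antibody and 0 of the other antibody, the 3 promoters most like each receptor's in all 6 lists, and neighbors with a region at their start. *Ptgds*, *Akr1c18*, *Grk3*, *Cnn1*, *Tagln* and *Tek* were named after their values were seen. The members and lists were chosen with earlier results of these data known. Replicate numbers were not treated as pairs. Alternatives covered the q threshold, list length, distances, overlap, scaling, measure, pseudocount, filter, variance model, replicate block and leaving out each library.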

Additional observations from a re-analysis of the deposited data

How the results depend on the processing

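Of 349 values recomputed under alternatives, 242 gave the same call as reported or a value close to it. The 2 receptors with an own-promoter peak in every list became 1 (*Ptger4*) at −log10 q of at least 5 and with starts counted to 1 kb, and were 2 to 3 when a library was left out. The 10 window regions in all 6 lists became 5 at −log10 q of at least 5, 4 with 5 kb flanks, 21 with 50 kb flanks and 4 with 50% overlap of both peaks, and were 10 to 11 without 1 library. The 5 were the promoters of *Ptger4*, *Gipc1*, *Calm3*, *Cactin* and *Hmg20b*. The regions in *Ptgdr2*, in *Tbxa2r* and downstream of *Ptgir* dropped out at that threshold. The 7 regions called BRG1 higher became 0 after centering and with fold enrichment, and 3 to 5 without 1 library (4 without PBRM1 replicate 2, 3 without PBRM1 replicate 3, and 4 without BRG1 replicate 1 or 3). The *Ptger4* call was lost without 5 of the 6 libraries (limma adjusted p = 0.0547 to 0.133). The 1 window called (*Ptger3*) became 0 without any 1 library, after centering, at −log10 q of at least 5 and with a pseudocount of 1. *Ptger3* itself was not tested without a BRG1 library or at −log10 q of at least 5, where its window dropped out of the fit. The limma fits without a call held 1 to 6 receptor windows at an unadjusted p below 0.05. With 50 kb flanks 2 receptor windows were called. For all windows, the calls of 94 BRG1 higher and 30 PBRM1 higher became 0 to 4 and 0 without 1 library, 2 and 0 with a pseudocount of 1, 418 and 44 at −log10 q of at least 5, 899 and 41 without the filter, 1926 and 69 with 50 kb flanks, and 39 and 35 after centering. The median receptor window difference of 0.61 became 0.22 after centering, 0.32 with fold enrichment and 0.34 with 5 kb flanks. Each of these medians includes *Ptger3*, which has no PBRM1 peak. Its difference was 1.50 after centering, 3.78 with fold enrichment and 1.65 with 5 kb flanks. Signs reversed after centering at the *Gng8* promoter (-0.21), downstream of *Ptgir* (-0.10) and at *Tbxa2r* (-0.043). With fold enrichment they reversed there too (-0.29, -0.068 and -0.0091), at the *Calm3* (-0.011) and *Cactin* (-0.071) promoters, and in the windows of *Ptgfr* (-0.058), *Ptgir* (-0.028) and *Tbxa2r* (-0.058). The *Ptgfr* window ranged from -0.14 to 1.13 when a library was left out (negative without BRG1 replicate 1, at -0.074, or BRG1 replicate 3) and reversed with a pseudocount of 0.1 (-0.059), and the *Ptger1* window reversed with 5 kb flanks (-0.33). None of these reversed values passed the threshold, and the cause was not tested. Over all 6-list regions, the 6710 called BRG1 higher and 68 PBRM1 higher became 131 and 287 after centering, 1316 and 29 with fold enrichment and 4574 and 12 at −log10 q of at least 5, and those called PBRM1 higher were 33 to 86 without 1 library. Fitting the replicate number as a block called 6 of the 10 regions, without *Ptger4* (limma adjusted p = 0.0531), and left 0 windows called for the receptors (4 at an unadjusted p below 0.05) and 0 for all windows. The correlation of the deviations of same-numbered libraries was -0.029 to 0.0037, with each library's median removed first. Libraries with different numbers gave -0.030 to 0.031, and 1 of the 3 PBRM1 libraries was closest to its own number. No pairing was detected, but a shift shared by whole libraries could not show in this measure. The labels do not say whether a number marks a shared animal or day. Depth limits what a missing peak means, since single libraries called nothing under 6 or 7 overlapping fragments.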

Other observations

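The pooled lists, called by the authors on the fragments of all 3 replicates, held 39 PBRM1 and 39 BRG1 peaks in the 9 receptor windows. Of these, 20 PBRM1 and 14 BRG1 peaks overlapped no replicate peak. One stood out by height, a BRG1 peak 4172 bp upstream of *Ptger1* with a pileup of 1.28 FPM (fragments per 1000000 fragments), a fold enrichment of 3.65 and a −log10 q of 14.04, where no BRG1 replicate list held a peak. The pooled PBRM1 list had a lower peak there, 4259 bp upstream, at 0.581 FPM. In the *Ptger4* window the pooled BRG1 list held 9 peaks and the pooled PBRM1 list 6, and apart from the promoter peak each lay below 1 FPM (0.288 to 0.929 for BRG1 and 0.372 to 0.630 for PBRM1).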
